A study of Arabidopsis thaliana and Zea mays with 36 samples.

Results

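The dehydrins of Arabidopsis thaliana are described here across graded drought. They were taken as 10 gene identifiers of the family, by a rule that names the genes and uses no measured value, among 27655 genes with linear RNA values. The members were chosen with earlier results of these data known. Of these 10 genes, 8 passed the filter for testing, a TPM (a transcript level scaled for length and to a fixed library total) of at least 1 in at least 2 libraries, as did 18938 genes in all. The 2 that did not pass are AT4G38410 and AT4G39130.

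Dehydrins are a branch of the late embryogenesis abundant (LEA) proteins, hydrophilic and largely disordered proteins that build up in drying seeds and in leaves under drought, cold or salt. They are defined by the lysine-rich K segment, which can fold into a helix on membranes, and many also carry a serine tract, the S segment, or an N-terminal Y segment. Their genes are known targets of abscisic acid (ABA), the hormone of water deficit, whose SnRK2 kinases activate bZIP factors at ABA-responsive promoter elements (ABRE). DREB and CBF factors act at dehydration-responsive elements (DRE).

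The study sequenced leaves of Col-0 rosettes that were well watered (WW) or sampled at 1 of 4 drought levels, DT2, DT3, DT4 and DT5, with DT5 the highest number. All groups are Col-0 plants, and water supply is the only factor the labels name. Treatment began 21 days after planting, and leaves of 4 plants were pooled for a sample. Each group had 2 biological replicates for linear RNA and 2 for circular RNA (circRNA, closed by back-splicing), which was sequenced after RNase R had digested linear RNA. Soil moisture values for these levels are not used here, and a pool of plants gives no spread between single plants.

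Each library sums to the same TPM total, so the read depth behind the levels is unknown and a level is a share of the library's RNA. Relative to WW, the log2 change of the median gene was 0.12 in DT2, 0.22 in DT3, 0.41 in DT4 and 0.26 in DT5. DT3 lay 0.10 above DT2 and DT4 0.20 above DT3, and DT5 lay 0.17 below DT4, a log2 of -0.17. Changes are also given after rescaling each library by a trimmed mean, which brings the median gene near 0. The 3 leaf markers RBCS1A, RCA and LHCB1.3 summed to 3088 and 3780 TPM in DT5, against 53349 and 56564 TPM in WW; the part of this in the dehydrin shares was not tested. The 6 seed storage markers summed to at most 0.34 TPM in any library, with 5 or 6 of them at 0, and the 3 root hair markers to at most 0.07 TPM. The 4 flower markers summed to 0.50 to 2.39 TPM. In bulk leaf RNA, fewer cells of a type and less RNA per cell cannot be told apart.

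The family as a whole was a minor part of leaf RNA in WW, DT2 and DT3 and a large one in DT5. The summed level of the 10 genes was 1646 ± 55.5 TPM in WW, 1934 ± 222 TPM in DT2, 2296 ± 26.7 TPM in DT3, 16407 ± 4679 TPM in DT4 and 59062 ± 4059 TPM in DT5 (SD, n = 2 each). As a share of all TPM, this was 5.91% ± 0.406 in DT5 and 1.64% ± 0.468 in DT4, against 0.165% ± 0.00555 in WW (SD, n = 2 each). All values of DT4 lay above those of WW, DT2 and DT3, and all values of DT5 above those of DT4.

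The makeup of this sum changed with its size. HIRD11 held 43.3% and ERD14 39.3% of the dehydrin TPM in WW, and RAB18 held 1.34%. In DT4 RAB18 held 60.2%, ERD14 13.5% and HIRD11 9.52%. In DT5 RAB18 held 63.2% and LTI30 13.3%, while ERD14 and HIRD11 held 4.77% and 3.91%, although the level of both genes was higher than in WW. COR47 and ERD10 held shares in DT5, 7.28% and 7.45%, that were near those in WW, 7.16% and 8.29%.

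**Figure D1:**
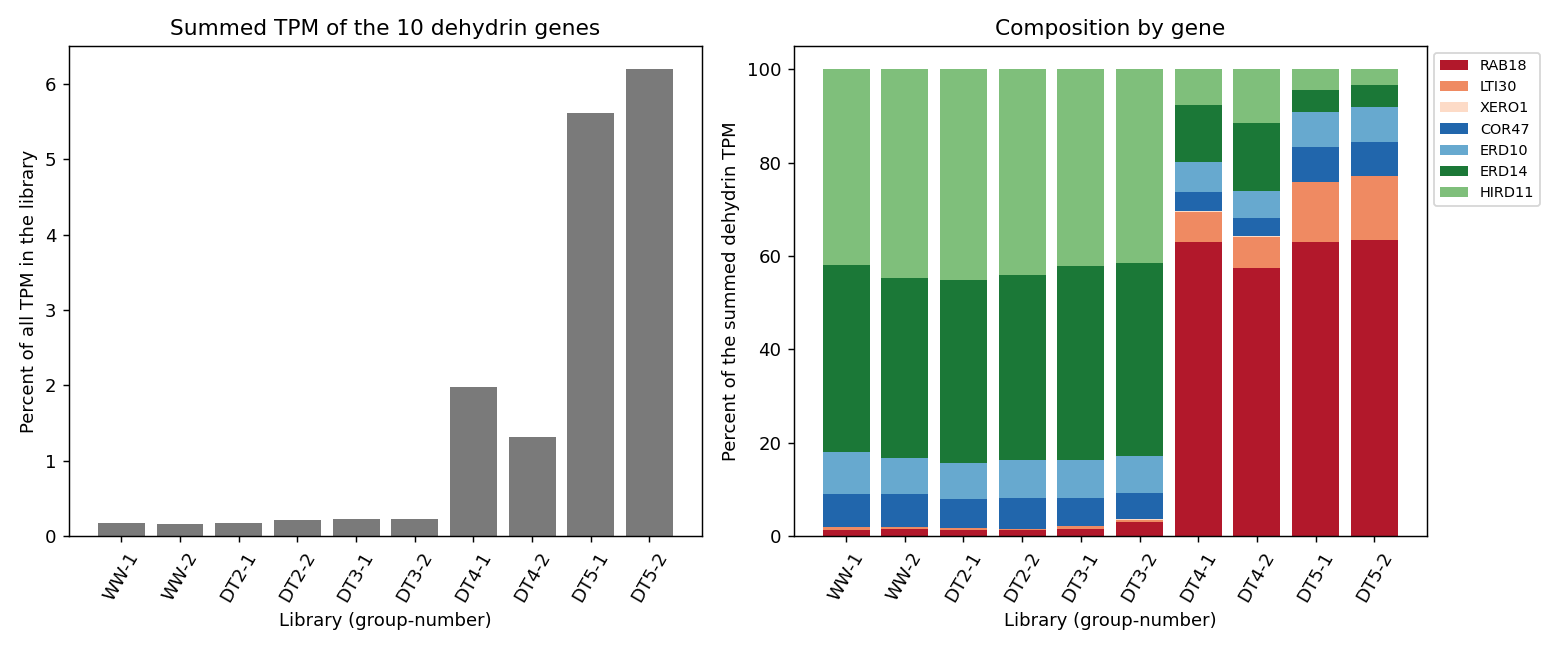
Left, the summed TPM of the 10 dehydrin genes as a percent of all TPM in each linear RNA library, in order of drought level. Right, the percent of that sum held by each of 7 genes; the other 3 held under 0.03% of it in every library and are not drawn. The share is below 0.25% in WW, DT2 and DT3 and above 5% in both DT5 libraries, and RAB18 is the largest part in DT4 and DT5.

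RAB18 (AT5G66400, chromosome 5) is the classic ABA-responsive dehydrin of Arabidopsis leaves, with Y, S and K segments. It had 21.2 and 22.9 TPM in WW, 23.2 and 26.9 TPM in DT2, 36.6 and 70.3 TPM in DT3, 12416 and 7534 TPM in DT4, and 35410 and 39236 TPM in DT5. In TPM as deposited, each group lay above the one before it without overlap, with the step between DT3 and DT4 by far the largest. The separation of WW from DT2 depended on the scaling. The log2 change of RAB18 in DT2 against WW was 0.17 (SE 0.28) as deposited and 0.03 (SE 0.30) after rescaling. Among all genes, RAB18 ranked 6635 and 6116 in the WW libraries, 3 in both DT4 libraries and 1 in both DT5 libraries. Its mean in DT5 was 1694 times that in WW, a log2 change of 10.66 ± 0.28 (SE; adjusted p from limma = 6.3e-09). Its mean in DT4 was 453 times that in WW, and its mean in DT5 was 3.74 times that in DT4, a log2 change of 1.95 ± 0.28 (SE; adjusted p from limma = 4.2e-04). RAB18 also passed the test in DT3 against WW, at a log2 change of 1.17 ± 0.28 (SE; adjusted p from limma = 0.0231). That change was 0.93 after rescaling and 0.71 without DT3 replicate 2, and passed the test in neither.

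LTI30 (AT3G50970, chromosome 3), also called XERO2, is a dehydrin of K segments that binds membrane phospholipids. It had 10.4 and 8.07 TPM in WW, 7.06 and 6.87 TPM in DT2, 11.2 and 11.1 TPM in DT3, 1263 and 858 TPM in DT4, and 7233 and 8545 TPM in DT5. WW, DT2 and DT3 lay at like levels with DT2 lowest, and LTI30 did not pass the test in DT2 (log2 change -0.35, SE 0.18, limma adjusted p = 0.355) or in DT3 (0.26, SE 0.18, adjusted p = 0.321). The mean was 115 times that of WW in DT4 and 852 times that of WW in DT5, log2 changes of 6.68 (SE 0.18) and 9.59 (SE 0.18), with limma adjusted p-values of 3.7e-08 and 2.8e-09. The mean in DT5 was 7.44 times that in DT4, the widest such ratio among the 6 members with at least 1 TPM in WW. It ranked 4 and 5 among all genes in the DT5 libraries.

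XERO1 (AT3G50980) lies next to LTI30 on chromosome 3, with no other protein-coding gene between them. It was listed at 0 in both WW libraries and had 0.47 and 0 TPM in DT2, 0 and 1.26 TPM in DT3, 54.3 and 39.3 TPM in DT4, and 30.3 and 39.0 TPM in DT5. DT4 and DT5 were both far above the lower levels, and their ranges nearly met, at 39.0 TPM in DT5 and 39.3 TPM in DT4. XERO1, which reached the filter only with its DT4 and DT5 libraries, passed the test in both against WW (limma adjusted p = 2.3e-06 and 8.6e-07); with WW at 0 no fold is given. It was the one tested member that did not pass the test in DT5 against DT4, at a log2 change of -0.42 ± 0.36 (SE; adjusted p from limma = 0.370), while its neighbour LTI30 differed by 2.92 (SE 0.18) in the same comparison. The difference between the genes was not tested.

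COR47 (AT1G20440) and ERD10 (AT1G20450) are acidic dehydrins with S and K segments, lie next to each other on chromosome 1, and are known to be induced by cold as well as drought; ERD10 has chaperone activity in vitro. COR47 had 121 and 115 TPM in WW, 109 and 139 TPM in DT2, 137 and 132 TPM in DT3, 785 and 484 TPM in DT4, and 4153 and 4444 TPM in DT5. ERD10 had 151 and 122 TPM in WW, 140 and 166 TPM in DT2, 186 and 182 TPM in DT3, 1285 and 755 TPM in DT4, and 4182 and 4619 TPM in DT5. Both were at over 100 TPM in well-watered leaves, and for both all DT4 values lay above those of WW, DT2 and DT3 and below those of DT5.

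In DT5 against WW the mean of COR47 was 36.5-fold higher and that of ERD10 32.2-fold, log2 changes of 5.18 (SE 0.20) and 5.01 (SE 0.21), with limma adjusted p-values of 2.5e-08 and 4.5e-08. In DT4 against WW the means were 5.38-fold higher for COR47 and 7.46-fold for ERD10, at limma adjusted p-values of 8.1e-06 and 5.0e-06. The level of ERD10 over that of COR47 was 1.25 and 1.07 in WW, 1.28 and 1.20 in DT2, 1.36 and 1.38 in DT3, 1.64 and 1.56 in DT4, and 1.007 and 1.039 in DT5. DT4 held the highest ratios and DT5 the lowest; these ratios were not tested.

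ERD14 (AT1G76180, chromosome 1) is another acidic member, which binds calcium when its S segment is phosphorylated. It had 676 and 619 TPM in WW, 695 and 830 TPM in DT2, 946 and 957 TPM in DT3, 2411 and 1933 TPM in DT4, and 2733 and 2895 TPM in DT5. In TPM as deposited, the groups did not overlap and followed the order of drought level. The separation of WW from DT2 depended on the scaling. The log2 change in DT2 against WW was 0.23 (SE 0.14) as deposited and 0.08 (SE 0.15) after rescaling. ERD14 was 4.35-fold higher in DT5 than in WW, a log2 change of 2.12 ± 0.14 (SE; adjusted p from limma = 4.9e-07). It passed the test in DT3 (log2 change 0.56, SE 0.14, limma adjusted p = 0.0242), a change of 0.30 after rescaling that did not pass. In DT5 against DT4 the change was 0.38 (SE 0.14, limma adjusted p = 0.0430), and without DT4 replicate 2 it was 0.22 at an adjusted p of 0.210. The call was also lost without either DT5 replicate (adjusted p = 0.0831 and 0.164), without the filter, without the variance trend, and with those 2 groups alone in the fit (adjusted p = 0.0771, 0.0656 and 0.196).

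HIRD11 (AT1G54410, chromosome 1) is a small histidine-rich dehydrin that binds metal ions. It had 706 and 719 TPM in WW, 802 and 922 TPM in DT2, 959 and 960 TPM in DT3, 1501 and 1496 TPM in DT4, and 2444 and 2149 TPM in DT5. It was the most abundant dehydrin in WW and had the smallest change in DT5 among the 6 members with at least 1 TPM in WW. The groups again did not overlap in TPM as deposited, but the separation of DT2 from WW and from DT3 depended on the scaling. The log2 change of HIRD11 in DT2 against WW was 0.27 (SE 0.11) as deposited and 0.12 (SE 0.11) after rescaling. Its mean was 3.22-fold higher in DT5 than in WW, a log2 change of 1.68 ± 0.11 (SE; adjusted p from limma = 6.1e-07). The change in DT4 was 1.07 (SE 0.11, limma adjusted p = 3.3e-05), and 0.62 after rescaling, which still passed the test. The change in DT3 was 0.43 (SE 0.11, limma adjusted p = 0.0298), and 0.17 after rescaling, which did not.

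The other 3 genes had low levels. AT2G21490 (chromosome 2, symbol LEA in RefSeq) was listed at 0 in WW and DT3, had 0.11 and 0 TPM in DT2, 0.37 TPM in both DT4 libraries, and 5.33 and 4.48 TPM in DT5. It entered the test only through its DT5 libraries, and passed it in DT5 against WW (limma adjusted p = 2.5e-06) but not in DT4 (adjusted p = 0.0809, and between 0.0095 and 0.0163 with a pseudocount of 0.1 TPM, without the filter or without the variance trend). AT4G38410 (chromosome 4) had at most 0.47 TPM, in DT3, and was listed at 0 in all 4 libraries of DT4 and DT5. AT4G39130 (chromosome 4) was listed at 0 in all 10 libraries. AT4G38410 and AT4G39130 did not pass the filter.

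**Figure D2:**
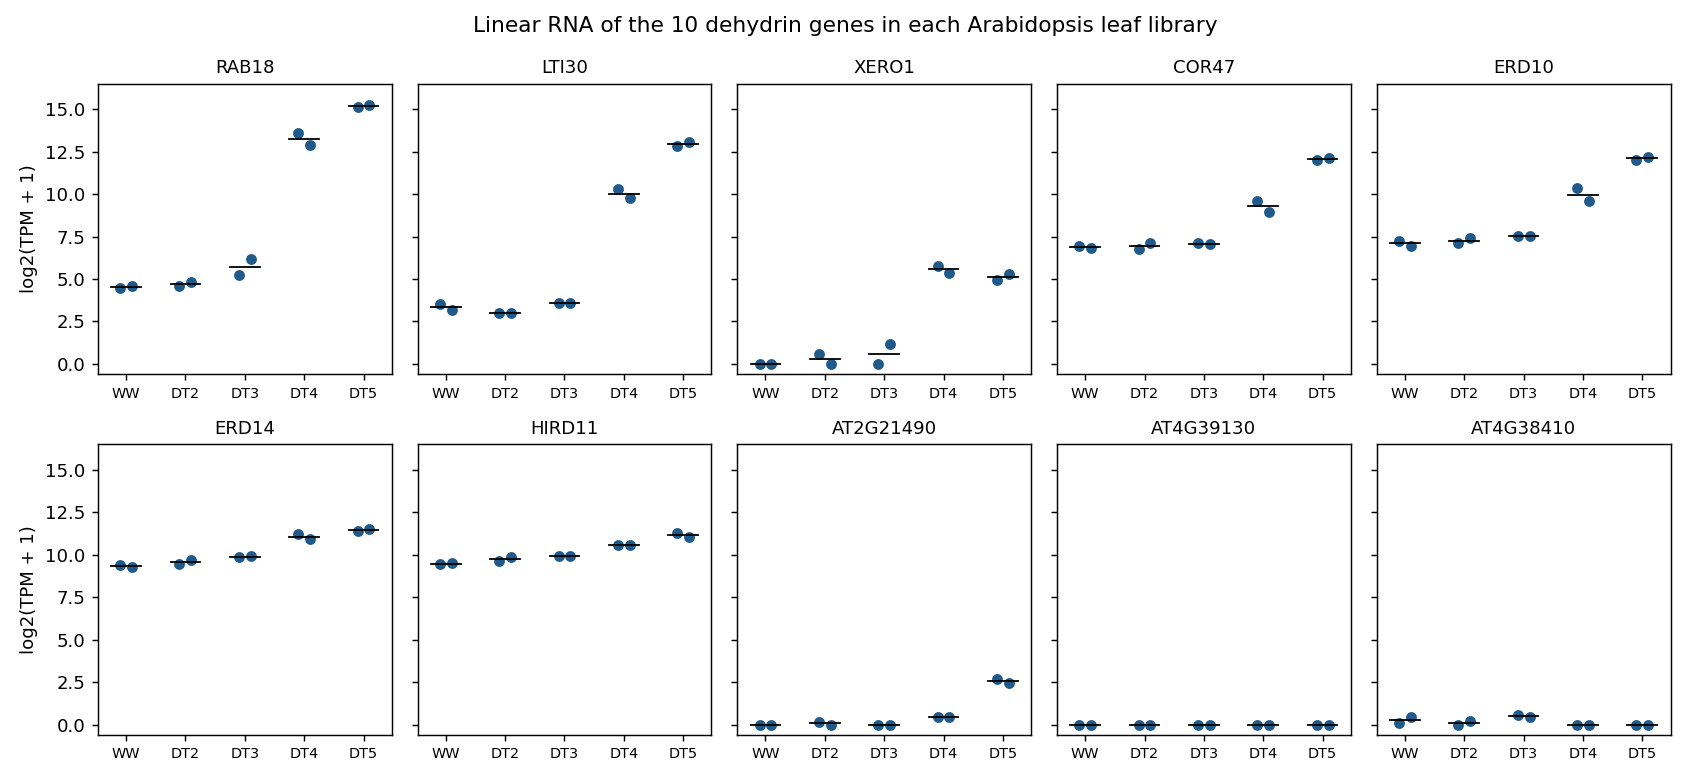
Level of each of the 10 dehydrin genes, as log2(TPM + 1), in the 2 linear RNA libraries of each group; points are libraries and lines are group means of the logged values. RAB18, LTI30, COR47, ERD10 and XERO1 separate DT4 and DT5 from the lower levels, ERD14 and HIRD11 climb in small steps, AT2G21490 is above 1 TPM only in DT5, and AT4G39130 is at 0 throughout.

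Read over the family, every call of a dehydrin was a higher level at the higher drought level, and none was made in DT2 against WW or in DT3 against DT2. The log2 step in DT4 against DT3 was larger than that in DT5 against DT4 for RAB18 (7.54 and 1.95), LTI30 (6.42 and 2.92) and ERD14 (1.18 and 0.38). It was close to it for ERD10 (2.41 and 2.16) and HIRD11 (0.64 and 0.61) and smaller for COR47 (2.19 and 2.80); these differences of steps were not tested. A gene was called at a limma adjusted p under 0.05 over the 18938 genes tested. XERO1 and AT2G21490 passed the filter only through their high levels in DT4 or DT5, so the counts below describe the family and are not support for it.

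In DT2 against WW no dehydrin was called, with 1.47% of all genes called higher and 0.412% lower; at an unadjusted p under 0.05, 1 member, HIRD11, was higher. In DT3 against WW 3 of 8 were called higher (RAB18, ERD14 and HIRD11) and 0 lower, with 14.5% of all genes called higher and 2.22% lower. None of these 3 was called after rescaling, and leaving out either WW replicate or DT3 replicate 2 left 0 calls, while leaving out DT3 replicate 1 left 1, RAB18. In DT4 against WW 7 of 8 were called higher and 0 lower, against 48.3% and 16.4% of all genes. In DT5 against WW all 8 tested members were called higher and 0 lower, against 43.4% and 28.1% of all genes.

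Between neighbouring drought levels, DT3 against DT2 gave no call, with 0.0581% of all genes higher and 0.0211% lower; 3 members (RAB18, LTI30 and ERD14) were higher at an unadjusted p under 0.05. DT4 against DT3 gave 7 members higher and 0 lower, against 33.6% and 20.0% of all genes. DT5 against DT4 gave 7 higher and 0 lower, while 16.0% of all genes were called higher and 30.3% lower. The F test for any difference among the 5 groups called all 8 tested members and 81.8% of all genes.

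The median log2 change against WW over the 8 tested members was 0.17 in DT2, 0.43 in DT3, 2.61 in DT4 and 5.07 in DT5. The counts of members called were the same after rescaling in each of these comparisons but DT3 against WW. Over all genes the rescaling moved the split of calls: of the genes called, 78.1% were higher in DT2 against WW as deposited and 53.3% after rescaling, 86.8% and 43.8% in DT3, 74.7% and 47.4% in DT4, and 60.7% and 48.3% in DT5. In DT3 against DT2 the share higher was 73.3% as deposited and 33.3% after rescaling, in DT4 against DT3 62.7% and 47.2%, and in DT5 against DT4 34.5% and 47.2%.

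**Figure D3:**
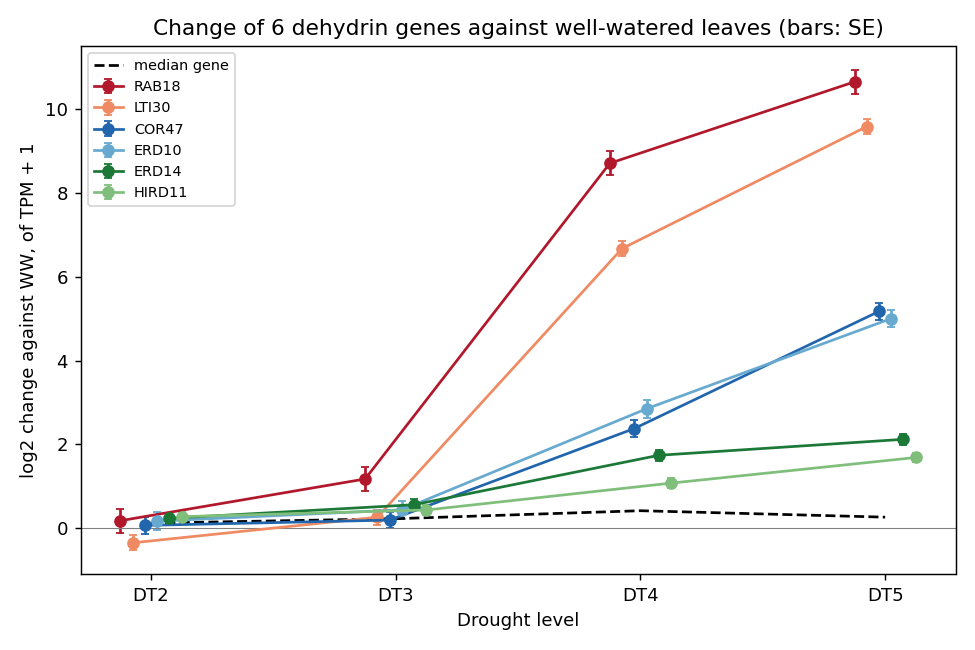
Log2 change of TPM + 1 against WW for the 6 dehydrin genes with at least 1 TPM in WW, at each drought level, with bars for the SE of the limma fit; the dashed line is the median of all 18938 genes tested. RAB18 and LTI30 reach 10.66 and 9.59 in DT5, COR47 and ERD10 5.18 and 5.01, and ERD14 and HIRD11 2.12 and 1.68.

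By size of change in DT5, the 6 members above 1 TPM in WW fell into pairs whose order is the reverse of their order of level in WW. The level in WW also enters the change, and the pairs were drawn from these values, so this is a description. Within the RAB18 and LTI30 pair the order was not reversed. RAB18 and LTI30, the lowest in WW, had changes of 10.66 and 9.59. COR47 and ERD10, intermediate in WW, had 5.18 and 5.01, and ERD14 and HIRD11, the highest in WW, had 2.12 and 1.68. Within the COR47 and ERD10 pair the changes differed by less than the SE of either. In DT5 the order of mean levels was RAB18 at 37323 ± 2705 TPM, LTI30 at 7889 ± 928, ERD10 at 4401 ± 309, COR47 at 4299 ± 206, ERD14 at 2814 ± 114 and HIRD11 at 2296 ± 208 TPM (SD, n = 2 each), where ERD10 and COR47 overlapped and the others did not. In WW the order was HIRD11 at 712 ± 9.57, ERD14 at 648 ± 39.7, ERD10 at 137 ± 20.3, COR47 at 118 ± 4.64, RAB18 at 22.0 ± 1.16 and LTI30 at 9.26 ± 1.68 TPM (SD, n = 2 each); there the lowest ERD10 library, at 122 TPM, was just above the highest COR47 library, at 121 TPM.

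The DT4 replicates differed from each other more than those of DT5 for most members. In DT4 replicate 1 the levels of RAB18, LTI30, XERO1, COR47, ERD10 and ERD14 were all higher than in DT4 replicate 2, while HIRD11 had 1501 and 1496 TPM. The summed leaf markers were 20997 TPM in DT4 replicate 1 and 26932 TPM in DT4 replicate 2; the part of this difference in the dehydrin levels was not tested. The level of RAB18 over that of LTI30 was 9.83 and 8.78 in these libraries, closer together than the levels of either gene. That ratio was 4.90 and 4.59 in DT5 and 2.03 and 2.83 in WW.

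Across the 10 libraries the members followed each other closely, which is a description, since all share the same libraries and the same drought series. Pearson's r of log2(TPM + 1) was highest between COR47 and ERD10, at 0.994, and between RAB18 and LTI30, at 0.993. It was lowest between XERO1, whose mean was lower in DT5 than in DT4, and AT2G21490, which was above 1 TPM only in DT5, at 0.691.

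The genes outside the family with the pattern most like RAB18 by the same measure were AT5G42190, AT5G50360, AT5G60160, AT3G62990 and AT2G41190, each at r = 0.999 over 10 libraries, among 198 genes at 0.99 or more. The measure takes no account of the size of a change. AT5G42190 averaged 208 TPM in DT5 and 99.1 TPM in WW, whereas AT5G50360 averaged 235 TPM in DT5 and 0.065 TPM in WW. The gene most like each of the other members was AT4G21570 for LTI30, NSN1 for XERO1, GSTU9 for COR47, AT5G42570 for ERD10, APL4 for ERD14, BT4 for HIRD11 and SOM for AT2G21490, at r from 0.995 to 0.999.

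The 10 genes had 13 annotated transcripts, of which 3 genes had 2. The same transcript dominated each of these in all libraries: the first of RAB18 held 98.7 to 100% of the gene's TPM, the first of ERD10 98.0 to 99.1% and the second of ERD14 89.6 to 93.3%. The minor RAB18 transcript had 144 and 112 TPM in DT5, against 0 and 0.29 TPM in WW, a share of at most 0.511% in DT4 and DT5; it was not tested on its own.

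Of the 10 dehydrin genes, RAB18 was the only one with a circRNA in the deposited table of 1354. It is an exonic circRNA named AT5G66400_C1 from the minus strand of chromosome 5, positions 26518803 to 26519053 as deposited, with TAIR10 the Arabidopsis build that the submitters' notes name; the deposited length, 250 bp, is the end minus the start. Its signal, on the authors' scale, was 141 and 159 in the DT4 libraries and 0 in each of the other 8 libraries. It was thus listed in DT4 alone, as were 155 circRNAs (11.4%) of the table.

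The mean of linear RAB18 was 3.74-fold higher in DT5 than in DT4, while the circRNA was listed at 0 in DT5. With a step set at 0.5 of the smallest nonzero value of a library, 100% of the circRNA values were within 0.02 of a whole number of steps, and 41.6 to 50.6% of the listed values in a library were an odd number of steps. The smallest value itself is thus not the unit of the scale. The RAB18 circRNA had 12 steps in each DT4 library; that a step is 1 read is an assumption no source states. No value of 1 step was listed, and over all circRNAs and groups, 4048 pairs of libraries were both at 0 and in 1 pair a single library was at 0. A 0 is therefore not shown to be absence, and no fold or test is given for this circRNA. No circRNA of another dehydrin gene was listed, including for HIRD11 and ERD14, the most abundant linear dehydrin RNAs of WW.

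**Figure D4:**
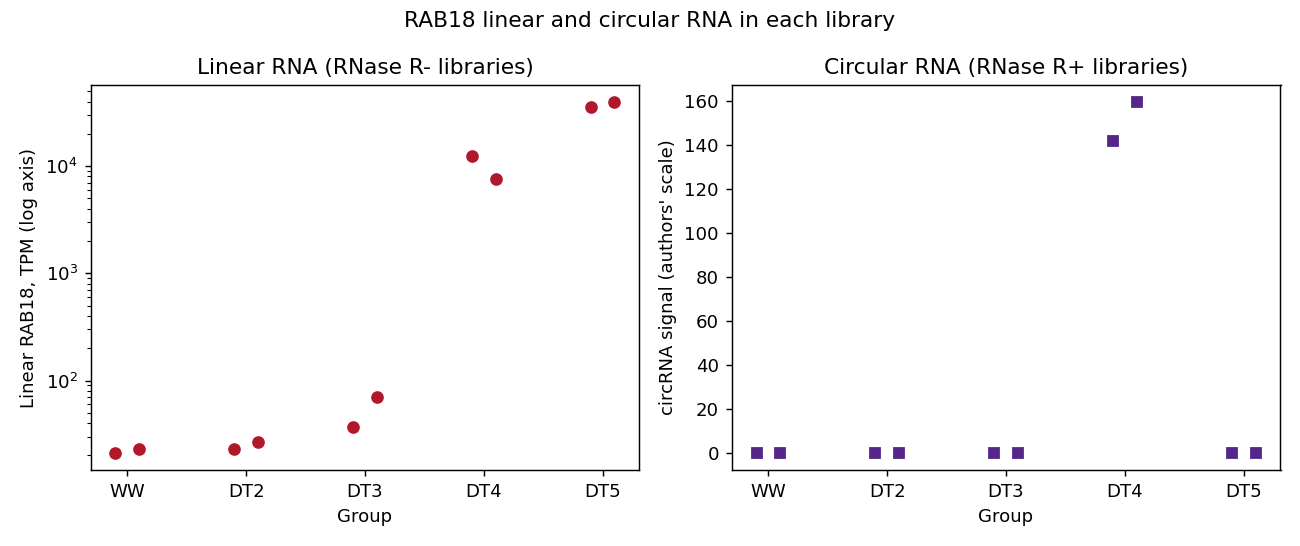
Linear RAB18 in TPM on a log axis (left) and the signal of the RAB18 circRNA on the authors' scale (right) in the 2 libraries of each group. The linear and circRNA libraries are separate. Whether they pair by replicate is not known, because column numbers were not matched to the letters of titles. Linear RAB18 is highest in DT5, and the circRNA is above 0 only in DT4, at 141 and 159.

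The factors that act on dehydrin promoters are set beside the members, from lists of named genes. Of the 5 ABRE-binding bZIP factors, which carry the ABA signal to genes such as RAB18, 4 were higher in DT5 than in WW and 0 lower, where 43.4% of all genes were called higher and 28.1% lower. In DT4 5 were higher, against 48.3% of all genes. Both counts include ABI5, which entered the test only through DT4 and DT5, so they are a description. ABF1 averaged 47.6 ± 6.55 TPM in DT5 and 5.55 ± 0.0849 TPM in WW (SD, n = 2 each), a log2 change of 2.88 ± 0.18 (SE; adjusted p from limma = 3.5e-07). ABF2 changed by 2.84 (SE 0.17) and ABI5, which is best known from seeds, by 2.58 (SE 0.29). ABF3 was the exception, with 70.6 ± 1.37 TPM in DT5, 130 ± 40.9 TPM in DT4 and 53.5 ± 3.12 TPM in WW, and was not called in DT5 against WW (limma adjusted p = 0.0788). It was called there once the dehydrins were taken out of the TPM total.

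Of the 6 DRE-binding factors, 4 were called higher in DT5 than in WW and 0 lower, against 43.4% and 28.1% of all genes. In DT4 5 were called higher, against 48.3% of all genes, and 3 after rescaling, against 24.9% of all genes. DREB2A, DREB2B, CBF1 and CBF4 reached the filter only with their DT4 and DT5 libraries, so these counts are a description. DREB2A, a factor of the drought and heat response, averaged 133 ± 19.6 TPM in DT5 and 0.72 ± 0.17 TPM in WW (SD, n = 2 each), a log2 change of 6.28 ± 0.19 (SE; adjusted p from limma = 1.0e-08). Its change in DT5 against DT4 was 3.07 (SE 0.19, limma adjusted p = 3.9e-06). CBF3 changed by 3.82 (SE 0.31) and DREB2B by 3.67 (SE 0.20) in DT5 against WW. CBF1, CBF2 and CBF3 are near-identical neighbours whose reads could be split between them, so their values are uncertain.

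The 3 SnRK2 kinases of ABA signalling were all higher in DT5 than in WW, where 43.4% of all genes were called higher and 28.1% lower. OST1 changed by a log2 of 2.35 (SE 0.14), SNRK2.2 by 1.82 (SE 0.11) and SNRK2.3 by 1.57 (SE 0.15), each at a limma adjusted p of 7.2e-06 or below. SNRK2.3 and SNRK2.2 were also called higher in DT2 against WW, where 1.47% of all genes were called higher and 0.412% lower. No dehydrin was called there, which is near that share. SNRK2.3 averaged 39.5 ± 1.32 TPM in DT2 and 21.3 ± 3.13 TPM in WW (limma adjusted p = 0.0209), and SNRK2.2 averaged 67.7 ± 9.17 TPM in DT2 and 42.3 ± 1.97 TPM in WW (adjusted p = 0.0191; SD, n = 2 each). Both were also called after rescaling. Whether the course of these kinases differs from that of the dehydrins was not tested.

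Casein kinase 2 phosphorylates the S segment of several dehydrins. Of its 8 subunit genes 6 were higher in DT5 than in WW and 1 was lower, where 43.4% of all genes were called higher and 28.1% lower. After rescaling 4 were higher and 1 lower, with 33.2% of all genes higher and 35.5% lower. The regulatory subunit CKB2 had the largest change, with 105 ± 2.81 TPM in DT5 and 33.7 ± 0.863 TPM in WW (SD, n = 2 each), a log2 change of 1.62 ± 0.10 (SE; adjusted p from limma = 2.8e-07). CKB1 changed by 0.94 and CKB3 by 0.93, and the catalytic subunit CKA4 by -0.29 (SE 0.09, limma adjusted p = 0.0179), a call that was lost when the dehydrins were taken out of the total.

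Other protective genes of drought and cold that are not dehydrins were listed beside them. Of 11 such genes 10 were higher in DT5 than in WW and 1 was lower, against 43.4% and 28.1% of all genes, with a median log2 change of 4.78, against 0.26 for all genes. EM1 and EM6, at most 0.10 TPM in WW, DT2 and DT3, passed the filter only through DT4 and DT5, so that count too is a description. LEA7 averaged 8610 ± 739 TPM in DT5 and 1.15 ± 0.622 TPM in WW (SD, n = 2 each), a log2 change of 11.996 ± 0.31 (SE; adjusted p from limma = 6.0e-09). LTI65 changed by 10.34 (SE 0.30) and LEA4-5 by 10.10 (SE 0.29). COR15B, which encodes a chloroplast protein of the cold response, fell to 8.46 ± 1.33 TPM in DT5, against 20.2 ± 0.707 TPM in WW (SD, n = 2 each), a log2 change of -1.17 ± 0.18 (SE; adjusted p from limma = 2.5e-04). COR15A, on the same list, changed the other way in DT5 against WW, by a log2 of 4.78 (SE 0.29). Whether reads were split between COR15A and COR15B was not tested. None of the 11 listed genes was called in DT2 or in DT3 against WW. Of all genes, 1.47% were called higher and 0.412% lower in DT2, and 14.5% and 2.22% in DT3.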

How the data were processed

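The authors deposited TPM values of transcripts for linear RNA, as the file headers state, and for circRNA a signal of unstated scale. RSEM, BWA and edgeR, without versions, and the build TAIR10 appear in the submitters' processing notes, with no word on their use. The linear header has 13 cells over 12 data cells, and its unit cell was read as a caption. Titles carry letters and columns numbers, so columns were assigned to groups only; a replicate is named by its column number.

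Transcripts were summed to 27655 genes. log2(TPM + 1) of genes with at least 1 TPM in 2 or more libraries was fitted over all 10 libraries with limma 3.58.1 (variance trend, two-sided) in R 4.3.3, with Benjamini-Hochberg adjustment over 18938 genes. Tables and figures were made with pandas 2.3.3 and matplotlib 3.10.9 in Python 3.11.15. The fit was tested on simulated data with independent noise for each gene and no shift of scaling. Changes were planted only in genes above a low level, so that run did not test changes of low genes. The rescaling divides each library by a factor taken from its log ratios to the mean library, over genes between the 30th and 70th percentile. A fold is a ratio of mean TPM; a log2 change is on the log2(TPM + 1) scale, which understates low genes. Libraries of equal column number showed little shared shift between groups, and whether they are paired is not known.

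The members and gene lists were chosen with earlier results of these data known. All members are named, and from each list the counts for DT5 against WW and the 3 largest changes. ABF3, COR15A, COR15B and CKA4 were added after their values were seen. So were the DT2 values of the kinases and the DT5 against DT4 value of DREB2A. Symbols of the genes most like each member come from RefSeq's TAIR10.1 table. The other symbols are those of the gene lists. For the members these match RefSeq, except HIRD11, which has no symbol there, and AT2G21490, named LEA there. Protein and promoter sequences and the maize tables were not used here.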

Additional observations from a re-analysis of the deposited data

How the results depend on the processing

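Direction held for every member called and every alternative run. Counts of dehydrins called were compared for DT4 and DT5 against WW, DT4 against DT3, DT5 against DT4 and the F test. They stayed within 1.5 times under each alternative but the literal reading of the linear header. Under that reading all of these dehydrin calls were lost, and so were the calls over all genes in these comparisons. Calls over all genes were not counted for the F test. The literal reading puts libraries of neighbouring levels in the same group and leaves DT5 with 1 library. In DT3 against WW the 3 calls became 0 under rescaling, 0 under the literal header and 0 to 1 when a library was left out. Of the values of single members under alternatives, 654 kept their side of the threshold, 55 lost a call and 7 gained one. Over all genes, the 356 calls in DT2 against WW were 197 without the variance trend, 209 with the highest transcript only and 934 with those 2 groups alone. Under the literal header they were lost. The 3174 calls in DT3 against WW were 2059 after rescaling and 2038 with the highest transcript only, and the 15 in DT3 against DT2 ran from 2 to 58. The replicate block by column number, whose same-number correlations were -0.16 to 0.067, gave 3, 7 and 8 dehydrins in DT3, DT4 and DT5 against WW and 6 in DT5 against DT4, where ERD14 was lost (adjusted p = 0.0608). With 1 library left in a group, that library is assumed to vary like the others. The planned promoter window was not run. TPM keeps no depth, so counting error cannot be given. Where not stated, the cause of a change was not tested.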
